A study of Homo sapiens with 16 samples.

Results

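Dual-specificity phosphatases (DUSPs) that act on MAP kinases were followed in human skin fibroblasts stimulated with a growth factor or a phorbol ester, with and without a kinase inhibitor. The group was set by name as 10 genes, DUSP1, DUSP2, DUSP4, DUSP5, DUSP6, DUSP7, DUSP8, DUSP10, DUSP14 and DUSP16, out of 28374 genes in the count table. All 10 of 10 passed the filter on low counts that left 18575 genes for testing.

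MAP kinases such as ERK, JNK and p38 are switched on when a kinase above them phosphorylates a threonine and a tyrosine in their activation loop. Phosphatases of this family remove both phosphates and so switch the kinase off, and several of them are themselves immediate-early genes, transcribed within minutes of the signal they later end. DUSP1, DUSP2, DUSP4 and DUSP5 are inducible enzymes of the nucleus, DUSP6 and DUSP7 are cytoplasmic enzymes that prefer ERK, DUSP8, DUSP10 and DUSP16 prefer JNK and p38, and DUSP14 is a small member without the MAP kinase-binding domain.

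CCD-1070Sk, an established line of normal human skin fibroblasts, was serum starved in every group. The 6 groups were cells without treatment (control), cells given the mitogen EGF (epidermal growth factor, 30 ng/ml) or TPA (a phorbol ester that activates protein kinase C, 100 nM) for 1 h, and each of these after H89. H89 (10 µM) inhibits the kinases MSK1 and MSK2, which lie below ERK and p38, and also protein kinase A. It was given for 30 min before the mitogen, and the H89 group is recorded at 0 h, so the time in H89 may differ between H89 alone and the mitogen groups. Of 16 samples, 2 controls held identical counts and were used once, which left 15 libraries, with 3 each for control, EGF and H89 alone and 2 each for TPA, EGF+H89 and TPA+H89. Nothing in the labels says that libraries of a group came from separate cultures, so tests measure the spread between these libraries, which may be technical.

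Library totals ran from 7527026 counts (TPA+H89 1) to 130075914 counts (TPA 2), and the 10 genes together held 0.0243% to 0.333% of them. The libraries fell into 3 technical batches read from the counts themselves: control 1 and EGF 1, which had more genes at 1 count than at 2, then 6 libraries with 11.7% to 30.4% of counts in the table's entries RNR1 and RNR2, and 7 with 0% there. They are called batches 1, 2 and 3. Batch 1 holds control and EGF only, and batches 2 and 3 hold every group. Batch 2 was itself uneven. TPA 1 and TPA+H89 1 held 11.7% and 12.0% in these entries, and control 2, EGF 2, H89 1 and EGF+H89 1 held 24.8% to 30.4%. Differences within batch 2 between groups with and without TPA cross this gap, and the batch term does not model it. Batch 1 was uneven as well, with 4.48% in these entries in control 1 and 0.0183% in EGF 1. In batch 3, TPA 2 had fewer genes at 1 count (124) and at 2 counts (261) than any other library. The batch term does not model these differences either. The fibroblast markers COL1A1, COL1A2, COL3A1, DCN, LUM, PDGFRA, PDGFRB, THY1, VIM and FAP summed to 20912 to 59359 CPM (counts scaled to a fixed library size), and all 10 were detected in every library. Summed levels of markers of other cells were 6.75 to 44.5 CPM for keratinocytes, 1.78 to 7.41 for endothelial cells, 1.07 to 2.94 for melanocytes and 12.4 to 77.6 for leukocytes. Most of the keratinocyte and leukocyte sums came from KRT10 and CD68, while KRT5 stayed at or under 0.241 CPM and PTPRC at or under 0.819 CPM. In these bulk libraries a smaller number of cells and less RNA per cell cannot be told apart.

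Promoter sequence was looked up in RefSeq (GRCh38.p14, 300 bases from 250 before to 50 after each start), and 9 starts of 8 of the 10 genes were searched. The promoters of the remaining members were not searched, so nothing is said here about their sites. The cAMP response element TGACGTCA, read on both strands, is the binding site of CREB, a factor that MSK1, MSK2 and protein kinase A phosphorylate. It occurred in 1.85% of 35116 promoters of that length and at the starts of DUSP1 and DUSP8. DUSP8 held 2 copies, and 0.0598% of promoters held 2 or more. The EGR site GCGGGGGCG occurred in 5.07% of promoters and at DUSP2. The 3 promoters with such a match are shown as the 250 bases before the start, 5′ to 3′ on the gene's own strand, with TGACGTCA or, for DUSP2, GCGGGGGCG in capitals. They lie on the minus strand at chr5:172771196-172771445 (DUSP1), chr11:1572272-1572521 (DUSP8) and chr2:96145441-96145690 (DUSP2).
DUSP1: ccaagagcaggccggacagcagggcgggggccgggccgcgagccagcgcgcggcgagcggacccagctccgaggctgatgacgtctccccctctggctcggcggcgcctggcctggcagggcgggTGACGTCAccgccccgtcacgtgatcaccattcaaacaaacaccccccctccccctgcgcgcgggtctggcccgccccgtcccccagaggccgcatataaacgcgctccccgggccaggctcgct
DUSP8: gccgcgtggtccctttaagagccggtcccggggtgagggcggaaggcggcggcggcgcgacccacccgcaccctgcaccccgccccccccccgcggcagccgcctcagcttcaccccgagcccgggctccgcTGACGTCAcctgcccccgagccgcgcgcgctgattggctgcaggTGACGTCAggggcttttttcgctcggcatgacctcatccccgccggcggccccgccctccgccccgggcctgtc
DUSP2: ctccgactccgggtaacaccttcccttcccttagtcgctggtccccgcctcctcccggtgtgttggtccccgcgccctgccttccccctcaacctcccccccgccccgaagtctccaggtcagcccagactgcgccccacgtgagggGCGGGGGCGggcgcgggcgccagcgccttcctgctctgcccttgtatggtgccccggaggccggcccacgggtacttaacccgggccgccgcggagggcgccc
The element's first base lay 125 bases before the start in DUSP1 and 118 and 74 bases before it in DUSP8, and the DUSP2 match began 103 bases before the start. The TATA box letters TATAAA began 30 bases before the start of DUSP1, and 11.5% of promoters held them. The shorter TGACG, which is part of the full element, was in 24.6% of promoters and also stood outside it at 172 and 111 bases before the DUSP1 start and at 4 bases before a DUSP10 start. TGANTCA (AP-1 site, 7.71% of promoters), CCGGAA (ETS site, 17.2%) and the CArG box (1.29%) were found at none of the 9 starts. These matches describe the letters in the window and are not measured binding.

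At rest the family was led by DUSP1. Per kilobase of exon, DUSP1 averaged 32.1 CPM in control cells, ahead of DUSP14 at 19.1, DUSP7 at 12.8 and DUSP10 at 10.7. DUSP6 followed at 8.50, DUSP5 at 5.86, DUSP4 at 4.45 and DUSP16 at 3.61 CPM per kb. DUSP2 at 0.438 and DUSP8 at 0.281 CPM per kb were the lowest. DUSP1 therefore made up 29.2% to 35.9% of the family's summed per-kb level in the 3 control libraries and 27.1% to 32.8% in the 3 H89 libraries.

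With a mitogen the make-up shifted towards DUSP1. Its share was 62.2% to 70.7% in the 3 EGF libraries and 69.2% and 84.7% in the 2 TPA libraries, none of which overlapped the control range. The summed per-kb level was 96.0 to 100 in control, 347 to 390 in EGF, and 552 in TPA 1 against 1660 in TPA 2. With H89 present DUSP1 held 57.9% and 60.2% after EGF and 45.9% and 62.5% after TPA. DUSP2, barely visible at rest, reached its largest share of 14.8% in TPA+H89 1.

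**Figure D1:**
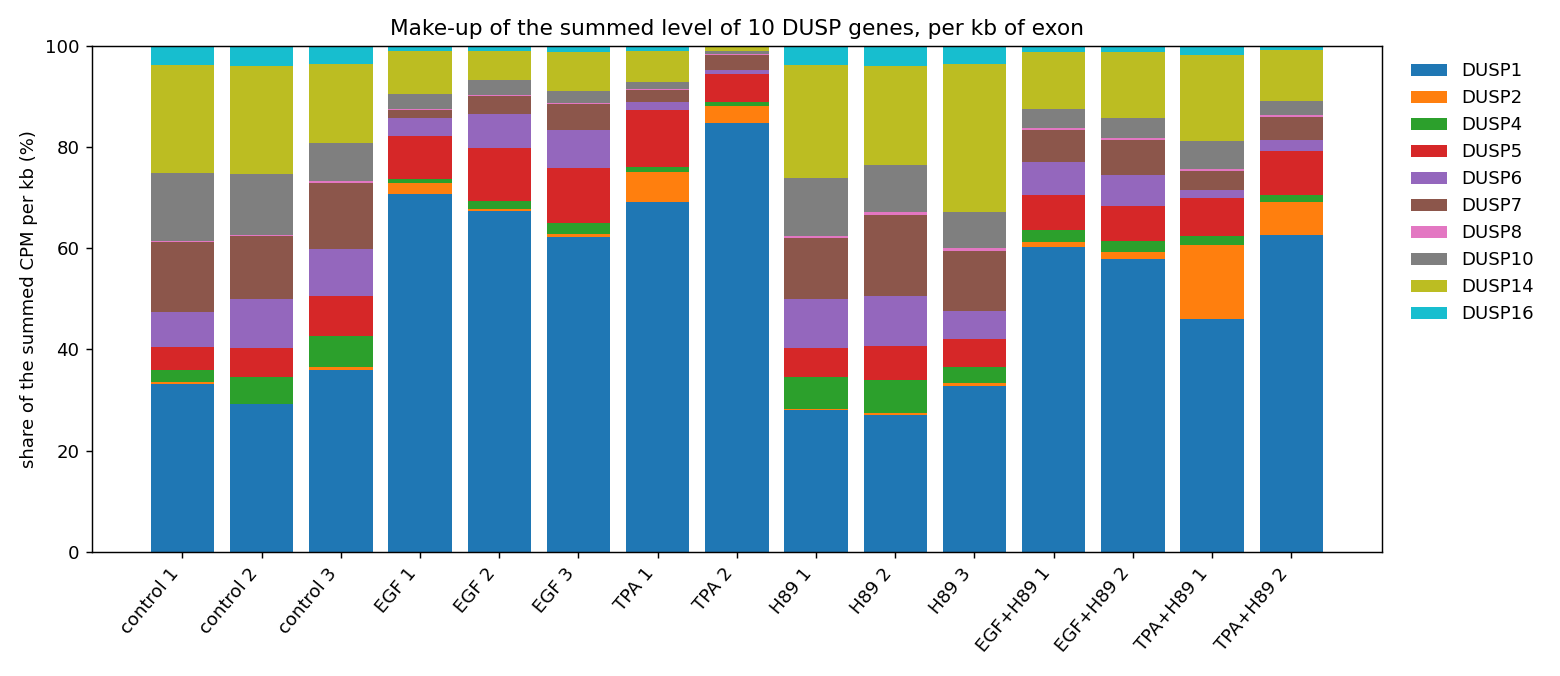
Share of each of the 10 genes in their summed level per kb of exon (%, from TMM-scaled CPM) in each of the 15 libraries, stacked to 100%. DUSP1 fills 29.2% to 35.9% of the control bars and 84.7% of the TPA 2 bar, and DUSP2 is widest in TPA+H89 1.

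After 1 h of EGF, DUSP5 rose 6.15-fold and was the only member called. Called means an adjusted p under 0.05 (Benjamini-Hochberg) in edgeR's quasi-likelihood test over all 18575 genes. That is 1 of 10 members where 0.0269% of tested genes were called. With a term for the technical batch, DUSP1, DUSP2 and DUSP5 were called (3 of 10, against 0.221% of genes). At an unadjusted p under 0.05 there were 5 of 10 (DUSP1, DUSP2, DUSP5, DUSP6 and DUSP8), against 1.63% of genes. In 5 members (DUSP1, DUSP2, DUSP5, DUSP6 and DUSP14) every EGF library lay above every control, as in 2.96% of genes. The members' median log2 fold change was 0.90, and the median of all tested genes was 0.02.

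After 1 h of TPA, DUSP1 rose 27.9-fold, DUSP2 95.2-fold and DUSP5 13.1-fold. These 3 of 10 members were called, where 0.415% of all genes were. With only the TPA and control libraries in the model none of the 3 was called (adjusted p = 0.157, 0.102 and 0.0938). The batch term added DUSP8 and gave 4 of 10, against 1.25% of genes. At an unadjusted p under 0.05 there were 6 of 10 (these 4, DUSP4 and DUSP7), against 13.2% of genes. DUSP1, DUSP2, DUSP5 and DUSP8 had every TPA library above every control, as in 9.60% of genes. DESeq2 called the same 4, against 2.84% of genes. The median log2 fold change was 1.21 for the members and -0.02 for all genes. For the members it was 0.67 without TPA 2 and 1.78 without TPA 1. EGF and TPA were compared with the same 3 control libraries, so the values of these comparisons are not independent.

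**Figure D2:**
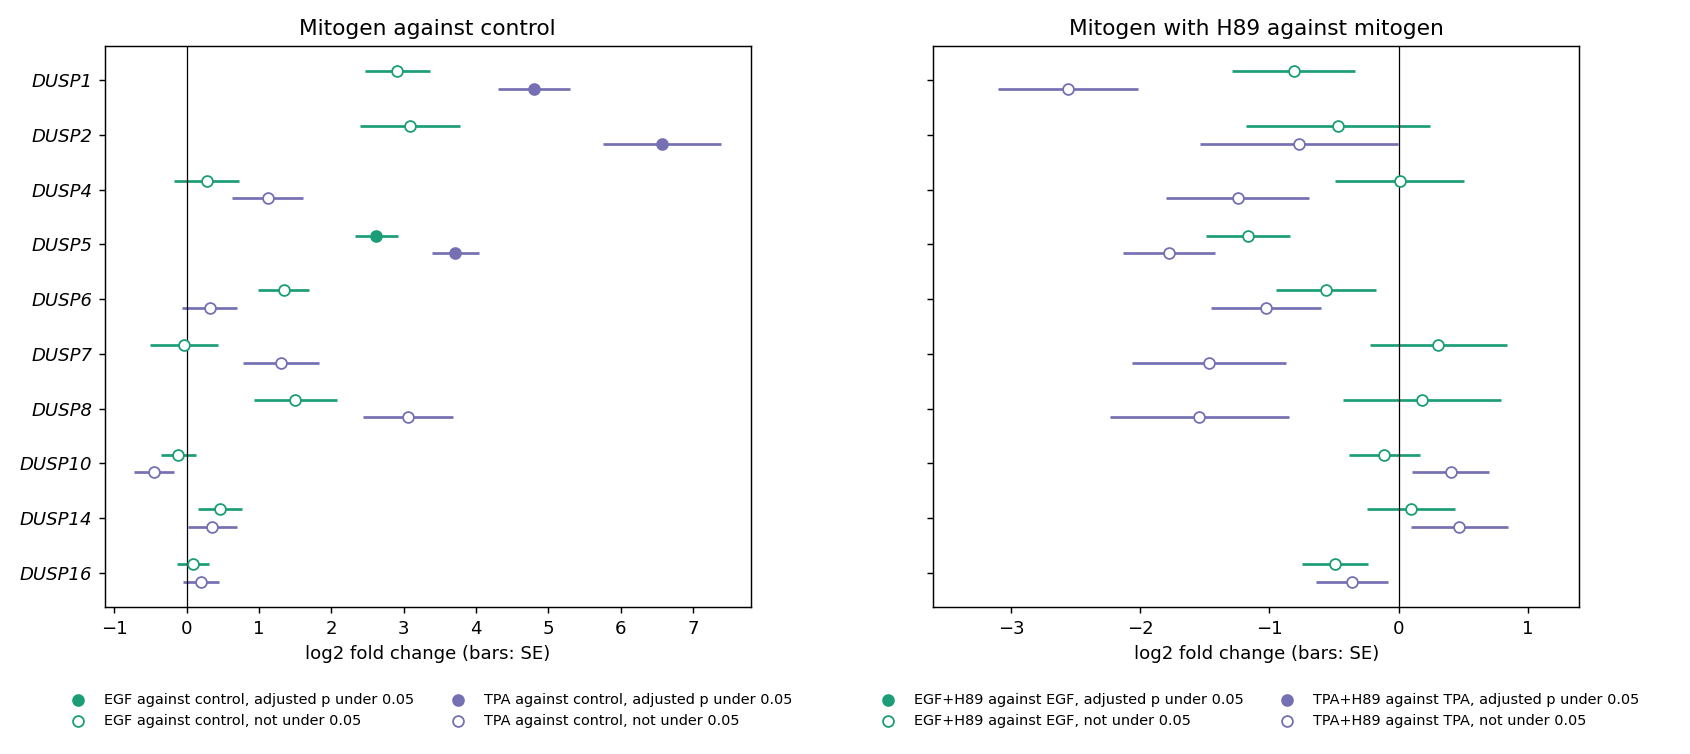
Log2 fold change (horizontal axis, with SE) of each of the 10 genes, for EGF and TPA against control on the left and for each mitogen with H89 against the mitogen alone on the right. Filled points have an adjusted p under 0.05 in edgeR: DUSP5 after EGF, and DUSP1, DUSP2 and DUSP5 after TPA on the left, and none on the right.

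Among the inducible nuclear enzymes, DUSP1 dephosphorylates p38, JNK and ERK and was the most abundant transcript of the family. It measured 67.0, 56.6 and 70.5 CPM in the 3 control libraries and 495, 530 and 436 CPM in the 3 EGF libraries. In TPA 1 and TPA 2 it measured 771 and 2838 CPM. The groups did not overlap, and the coefficient of variation was 9.78% among EGF libraries and 81.0% between the TPA libraries. Its log2 fold change was 2.91 ± 0.45 (SE) for EGF (adjusted p = 0.0563, not called) and 4.80 ± 0.50 for TPA (adjusted p = 0.00131). With the batch term the EGF value was 2.95 ± 0.37 (adjusted p = 0.00165). Within batches 1, 2 and 3 the EGF differences were 2.88, 3.23 and 2.63, so each batch showed the same direction. For TPA the difference was 3.77 in batch 2 and 5.33 in batch 3. Without TPA 2 the log2 fold change after TPA was 3.58 (adjusted p = 0.00679), and without TPA 1 it was 5.43.

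DUSP5 is a nuclear enzyme that acts on ERK alone among these kinases. Control libraries held 11.5, 13.9 and 19.5 CPM, EGF libraries 75.6, 104 and 97.2 CPM, and TPA libraries 160 and 234 CPM. The lowest stimulated library was well above the highest control, and both TPA libraries were above all EGF libraries. The log2 fold change was 2.62 ± 0.30 for EGF (adjusted p = 0.0162) and 3.72 ± 0.33 for TPA (adjusted p = 0.000821). Within batches it was 2.72, 2.89 and 2.31 for EGF, and 3.52 and 3.58 for TPA. The EGF call was lost when any 1 of 4 libraries was left out: control 2 (adjusted p = 0.311), EGF 2 (0.0514), EGF+H89 1 (0.0568) or EGF+H89 2 (0.0538). It was also lost with only the EGF and control libraries in the model (adjusted p = 0.284). The pseudogene DUSP5P1, whose reads could be confused with DUSP5, held 0 to 29 counts per library.

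DUSP2, an enzyme best known from activated lymphocytes, went from near absence to a clear signal after TPA. Raw counts in control libraries were 44, 2 and 46, or 0.955, 0.120 and 1.15 CPM. EGF libraries held 12.5, 3.27 and 4.12 CPM, and TPA libraries 54.0 and 94.9 CPM. The 3 groups did not overlap, and EGF 1 was the highest EGF library by a wide margin. On the log2 scale the fold change was 3.09 ± 0.69 for EGF (adjusted p = 0.353, not called) and 6.57 ± 0.82 for TPA (adjusted p = 0.00397). With the batch term the EGF value was 2.95 ± 0.47 (adjusted p = 0.0141). Within batches 1 and 3 it was 3.65 and 1.81. In batch 2 the control held 2 counts, and the ratio of EGF 2 to it was 27.2, with an exact 95% counting interval of 7.27 to 229. For TPA 1 that ratio was 450, with an interval of 124 to 3718, and the batch 3 difference was 6.32 on the log2 scale. These intervals cover counting error only. They treat each count as 1 fragment, which may not hold in batch 2, so they may be too narrow.

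DUSP4, a nuclear relative of DUSP1, did not change past the test with either mitogen. It measured 17.1, 36.8 and 43.0 CPM in control, 18.9, 46.5 and 51.8 CPM in EGF, and 40.2 and 100 CPM in TPA. Control 1 and EGF 1, which form batch 1, were the lowest 2 libraries of all 15. TPA 2 stood alone at the top. The fitted log2 fold change was 0.27 ± 0.45 for EGF (adjusted p = 1.00) and 1.12 ± 0.49 for TPA (adjusted p = 0.364). It was 0.32 for TPA without TPA 2, and 0.13 in batch 2 against 1.22 in batch 3.

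Of the cytoplasmic ERK phosphatases, DUSP6 had its highest values with EGF and not with TPA. It measured 31.5, 42.6 and 41.8 CPM in control and 56.6, 119 and 118 CPM in EGF, with EGF 1 well below the others. TPA libraries held 39.3 and 56.9 CPM and overlapped the control range. DUSP6 had a log2 fold change of 1.34 ± 0.35 for EGF (adjusted p = 0.744) and 0.32 ± 0.38 for TPA (adjusted p = 0.727), and neither was called by edgeR. DESeq2 called it after EGF at 1.33 (adjusted p = 0.0495), and limma with quality weights at 1.48 (adjusted p = 0.00139). Within batches the EGF difference was 0.85, 1.48 and 1.49.

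DUSP7, the other cytoplasmic ERK phosphatase, had a narrow control range of 39.9 to 46.4 CPM. EGF libraries held 18.5, 47.3 and 59.4 CPM, so the group straddled the controls. TPA 1 held 43.0 CPM, inside the control range, and TPA 2 held 169 CPM. DUSP7 had a log2 fold change of -0.04 ± 0.48 for EGF (adjusted p = 1.00) and 1.31 ± 0.52 for TPA (adjusted p = 0.334). The TPA value rested on TPA 2, since it was 0.01 without that library and 1.95 (adjusted p = 0.0410) without TPA 1, where 5.92% of all genes were called.

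DUSP8 acts on JNK and p38 and carries the 2 copies of TGACGTCA printed above. It was rare, at 1.04, 1.02 and 1.72 CPM in control and 1.45, 4.62 and 4.73 CPM in EGF. TPA libraries held 3.62 and 17.5 CPM, both above every control. DUSP8 had a log2 fold change of 1.50 ± 0.57 for EGF (adjusted p = 1.00) and 3.06 ± 0.63 for TPA (adjusted p = 0.0620), neither called by edgeR. The TPA value was called with the batch term at 2.53 ± 0.50 (adjusted p = 0.0180) and by DESeq2 at 3.02 (adjusted p = 0.00041, where 2.84% of genes were called). It was 1.52 without TPA 2 (adjusted p = 0.647) and 3.76 without TPA 1 (adjusted p = 0.00421).

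The remaining members showed no change that passed the test with either mitogen. DUSP10, which acts on JNK and p38, measured 19.2 to 36.2 CPM in control, 21.6 to 29.5 in EGF and 19.8 to 22.2 in TPA. Its log2 fold change was -0.11 ± 0.24 for EGF and -0.45 ± 0.28 for TPA. DUSP16, another phosphatase of JNK and p38, measured 17.9 to 19.6 CPM in control, 18.2 to 22.4 in EGF and 16.7 to 26.9 in TPA. Its log2 fold change was 0.08 ± 0.22 for EGF and 0.20 ± 0.25 for TPA. The standard errors of DUSP10 and DUSP16 were the smallest of the family in both comparisons. DUSP14 measured 38.4 to 53.5 CPM in control, 56.8 to 73.7 in EGF, and 85.0 and 37.3 in TPA 1 and TPA 2. All EGF libraries lay above the controls, but the log2 fold change of 0.46 ± 0.31 did not pass the test (adjusted p = 1.00). The TPA libraries fell on opposite sides of the control range, with a log2 fold change of 0.35 ± 0.34.

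**Figure D3:**
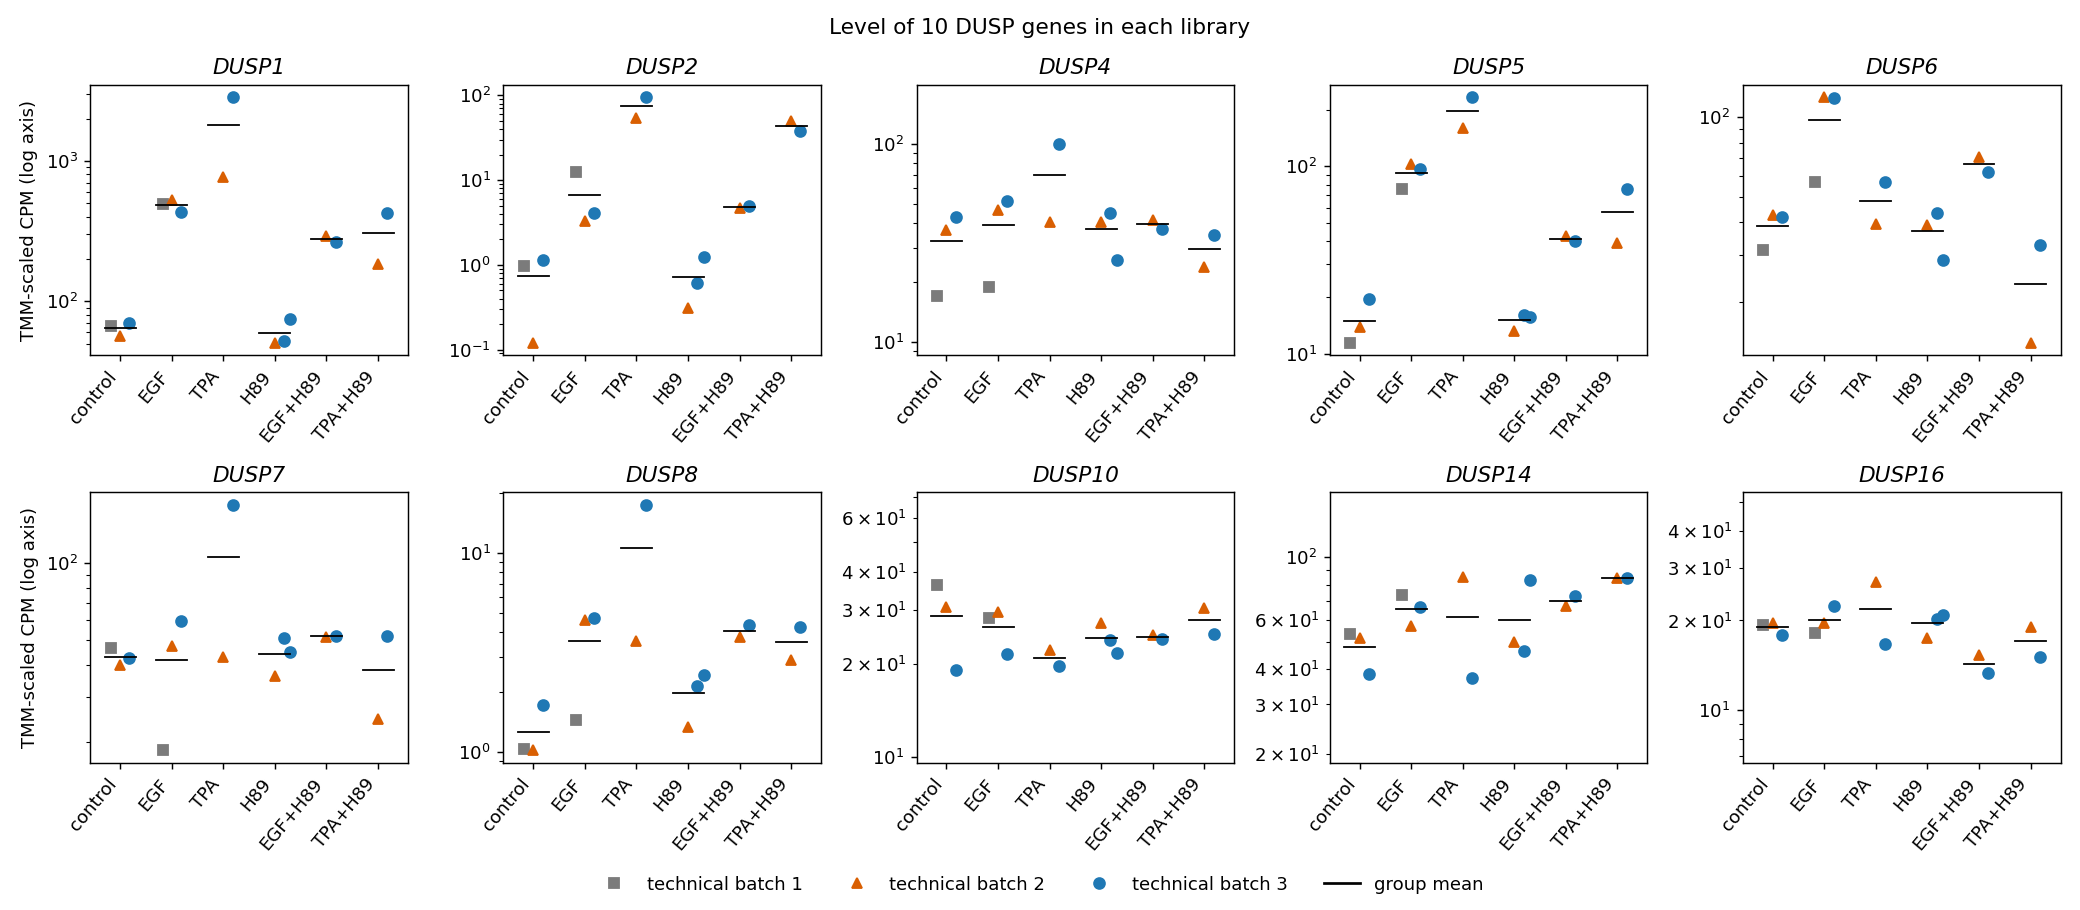
Level of each gene (TMM-scaled CPM, log axis) in the 15 libraries by group, with the technical batch as marker and colour and the group mean as a line. DUSP1, DUSP2 and DUSP5 sit clear of the controls after both mitogens. TPA 2 (batch 3) stands above TPA 1 in DUSP1, DUSP2, DUSP4, DUSP5, DUSP6, DUSP7 and DUSP8, and below it in DUSP10, DUSP14 and DUSP16.

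TPA was also set against EGF directly. No member was called (0 of 10, where 0% of genes were), while 6 of 10 had an unadjusted p under 0.05, against 13.4% of genes. DESeq2 called 3 (DUSP1, DUSP2 and DUSP5), against 1.58% of genes, and limma with quality weights 1 (DUSP2), against 0.00538%. The 6 with a low unadjusted p were DUSP1, DUSP2, DUSP5, DUSP7 and DUSP8 with higher values after TPA and DUSP6 with lower ones. DUSP2 differed by 3.48 ± 0.72 (adjusted p = 0.256) and was the 1 member called with the batch term, at 4.10 ± 0.51 (adjusted p = 0.00277), where 0.334% of genes were. It differed by 4.03 in batch 2 and 4.51 in batch 3. DUSP1 differed by 1.89 ± 0.46 (adjusted p = 0.301), but by 0.54 in batch 2 and 2.70 in batch 3. DUSP5 differed by 1.09 ± 0.31 (adjusted p = 0.301). DUSP6 differed by -1.02 ± 0.40 (adjusted p = 0.342), and both batches gave the same sign, at -1.59 and -1.05. DUSP7 differed by 1.34 ± 0.52 and DUSP8 by 1.56 ± 0.60 (adjusted p = 0.342 for each). These values rested on TPA 2. Without it the differences were 0.04 for DUSP7, 0.01 for DUSP8 and 0.67 for DUSP1, and no member was called. Without control 1, EGF 1 and TPA 2 they were -0.32 for DUSP7 and -0.37 for DUSP8. Without TPA 1, DUSP1, DUSP2, DUSP7 and DUSP8 were called (4 of 10), where 5.81% of genes were.

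With H89 alone no member changed past the test. None was called against control (0 of 10, where 0% of genes were, with and without the batch term), and 0 of 10 had an unadjusted p under 0.05, against 3.27% of genes. DESeq2 and limma with quality weights also called none. DUSP1 measured 50.6, 52.3 and 75.0 CPM in the 3 H89 libraries, with a log2 fold change of -0.13 ± 0.42. DUSP5 measured 13.3, 16.2 and 15.8 CPM, with a log2 fold change of 0.01 ± 0.28. The largest value was that of DUSP8, 0.64 ± 0.56, and all 10 genes overlapped the control range. DUSP2 stayed low, at 0.313 to 1.24 CPM.

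When H89 preceded EGF, the levels of DUSP5 and DUSP1 were lower than with EGF alone, but no member was called (0 of 10, where 0% of genes were, with and without the batch term). DUSP5 measured 42.3 and 39.9 CPM, below every EGF library and above every H89 and control library. Its log2 difference from EGF was -1.16 ± 0.33 (adjusted p = 1.00), and it was the 1 member with an unadjusted p under 0.05, against 1.67% of genes. Within batch 2 the level with H89 was 40.9% of that without, and within batch 3 it was 41.1%. Limma with quality weights called it at -1.27 (adjusted p = 0.00657), where 0.113% of genes were called, and DESeq2 called no member. DUSP1 measured 293 and 262 CPM, 55.2% and 60.2% of EGF in the same batch, with a log2 difference of -0.81 ± 0.48. DUSP16 measured 15.3 and 13.3 CPM, with a difference of -0.49 ± 0.25. In these 3 members every EGF+H89 library was below every EGF library, as in 10.1% of genes.

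DUSP6 and DUSP2 overlapped between EGF and EGF+H89. DUSP6 measured 70.3 and 62.0 CPM with H89, 59.3% and 52.7% of EGF in the same batch, but EGF 1 was lower than both. Its log2 difference was -0.56 ± 0.39. DUSP2 measured 4.70 and 4.90 CPM with H89, above EGF 2 and EGF 3 and below EGF 1. DUSP4 at 41.3 and 37.3, DUSP7 at 51.6 and 51.8 and DUSP8 at 3.80 and 4.35 CPM all fell inside the EGF range, as did DUSP10 at 25.0 and 24.1. DUSP14 measured 67.3 and 73.1 CPM. The members' median log2 difference was -0.29, and that of all genes was -0.07.

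Against H89 alone, EGF+H89 called no member (0 of 10, against 0.0269% of genes), while the batch term called DUSP1, DUSP2 and DUSP5 (3 of 10, against 0.269%). At an unadjusted p under 0.05 there were 4 of 10, DUSP1, DUSP2, DUSP5 and DUSP6, against 1.53% of genes. In 6 members, those 4 with DUSP7 and DUSP8, both EGF+H89 libraries were above all H89 libraries, as in 10.7% of genes. DUSP16 went the other way, at 13.3 and 15.3 CPM in EGF+H89 against 17.4 to 20.9 CPM in H89. The log2 fold change was 2.23 ± 0.46 for DUSP1 (adjusted p = 0.287), 2.69 ± 0.72 for DUSP2 (0.754) and 1.45 ± 0.31 for DUSP5 (0.296). With the batch term the adjusted p of these genes was 0.0112, 0.0140 and 0.0109. DESeq2 called the same 3, against 0.275% of genes, and so did limma with quality weights, against 1.15%.

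When H89 preceded TPA, 8 of the 10 members had lower fitted values than with TPA alone and 2 had higher ones. Of all tested genes, 44.8% had higher fitted values. No member was called by edgeR (0 of 10, where 0% of genes were, with and without the batch term). At an unadjusted p under 0.05 there were 6 of 10, DUSP1, DUSP4, DUSP5, DUSP6, DUSP7 and DUSP8, against 7.00% of genes. In 5 members, DUSP1, DUSP2, DUSP4, DUSP5 and DUSP6, both TPA+H89 libraries were below both TPA libraries, as in 11.1% of genes. DESeq2 called 2, DUSP1 and DUSP5, against 0.0538% of genes, and limma with quality weights none, against 0%. DESeq2 gave no adjusted p for DUSP2, DUSP4, DUSP8, DUSP10 and DUSP16 here, so it could not call them. The members' median log2 difference was -1.14, and that of all genes was -0.02. Without TPA 2 the members' median was -0.37. Without TPA 1 edgeR called DUSP1 and DUSP5, where 3.59% of genes were called.

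DUSP1 held the widest gap. It measured 186 CPM in TPA+H89 1 and 426 CPM in TPA+H89 2, 24.1% and 15.01% of the TPA library of the same batch. The log2 difference was -2.56 ± 0.54 (adjusted p = 0.713), and -2.51 ± 0.45 with the batch term (adjusted p = 0.124). DESeq2 called it at -2.56 (adjusted p = 0.000913). Without TPA 1 it was -3.19 (adjusted p = 0.0163), and without TPA 2 it was -1.33 (adjusted p = 1.00).

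DUSP5 measured 39.2 and 75.4 CPM in the TPA+H89 libraries, 24.5% and 32.3% of TPA in the same batch. The log2 difference was -1.78 ± 0.35 (adjusted p = 0.713), and -1.79 ± 0.28 with the batch term (adjusted p = 0.0665). DESeq2 called it at -1.78 (adjusted p = 0.000854). Without TPA 1 it was called at -2.01 (adjusted p = 0.0258), and without TPA 2 it was -1.47 (adjusted p = 1.00). Both TPA+H89 libraries of DUSP1 and DUSP5 remained above every control and every H89 library.

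DUSP2 had the smallest log2 difference of the 3 members called after TPA. It measured 49.9 and 37.6 CPM in TPA+H89, against 54.0 and 94.9 CPM in TPA. The level with H89 was 92.5% of that without in batch 2 and 39.7% in batch 3, and the log2 difference was -0.77 ± 0.77 (adjusted p = 0.919). The standard error was thus as large as the difference itself.

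DUSP8, DUSP7 and DUSP4 had a wider gap in batch 3 than in batch 2. DUSP8 measured 2.92 and 4.24 CPM with H89, 80.4% of TPA in batch 2 and 24.3% in batch 3. The batch 2 share rests on 16 counts in TPA+H89 1. DUSP7 measured 24.6 and 51.7 CPM, 57.3% and 30.6% of TPA. DUSP4 measured 24.1 and 34.9 CPM, 59.8% and 35.0% of TPA. Without TPA 2 the log2 differences of these genes shrank from -1.54 to 0.00 for DUSP8, from -1.47 to -0.16 for DUSP7 and from -1.24 to -0.44 for DUSP4. DUSP6 measured 14.03 and 32.8 CPM, 35.7% and 57.6% of TPA, and TPA+H89 1 was its lowest library of all 15. DUSP10 at 30.4 and 25.2 CPM was above both TPA libraries, with a difference of 0.40 ± 0.30. DUSP14 measured 84.7 CPM in both TPA+H89 libraries, with a difference of 0.47 ± 0.38, and DUSP16 measured 18.9 and 15.1 CPM, with a difference of -0.36 ± 0.27.

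TPA also raised DUSP2 and DUSP5 in the presence of H89. Against H89 alone these 2 of 10 members were called, where 0.0969% of genes were, and with the batch term DUSP1 was called as well (3 of 10, against 0.431%). The same 3 had an unadjusted p under 0.05, against 3.89% of genes. DUSP2 was 58.9-fold higher, at a log2 fold change of 5.88 ± 0.80 (adjusted p = 0.0175). DUSP5 was 3.81-fold higher, at 1.93 ± 0.31 (adjusted p = 0.0413). DUSP1 was 5.16-fold higher, at 2.37 ± 0.47 (adjusted p = 0.118), and at 2.38 ± 0.39 with the batch term (adjusted p = 0.00631). In 5 members, DUSP1, DUSP2, DUSP5, DUSP8 and DUSP14, both TPA+H89 libraries lay above all H89 libraries, as in 9.92% of genes. DESeq2 and limma with quality weights called DUSP1 with DUSP2 and DUSP5, against 0.409% and 0.371% of genes.

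These calls depended on single libraries. The DUSP2 call was lost without H89 1 (adjusted p = 0.143), H89 2 (0.157), H89 3 (0.0693) or EGF+H89 1 (0.0578). The DUSP5 call was lost without any 1 of 9 libraries, with adjusted p from 0.0639 without EGF 3 to 0.324 without H89 1. The others of these 9 were control 2, EGF 2, H89 2, H89 3, EGF+H89 1, EGF+H89 2 and TPA+H89 2. Without TPA+H89 2 the DUSP5 value was 1.37. The DUSP1 value was 1.64 without TPA+H89 2 and 2.85 without TPA+H89 1, and it was called without TPA 1 (adjusted p = 0.0374) or TPA 2 (0.0226). With only the TPA+H89 and H89 libraries in the model the DUSP5 call was lost as well (adjusted p = 0.148).

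The interaction of mitogen and H89 asks whether the mitogen's fold change differs with the inhibitor. No member was called in either interaction (0 of 10 each, where 0% of genes were, with and without the batch term). DESeq2 and limma with quality weights called none either. For EGF, DUSP5 was the 1 member with an unadjusted p under 0.05, against 0.258% of genes, at -1.17 ± 0.43 (adjusted p = 1.00). For TPA there were 3, DUSP1, DUSP5 and DUSP8, against 4.78% of genes. DUSP1 measured -2.43 ± 0.67 (adjusted p = 0.900), DUSP5 -1.79 ± 0.45 and DUSP8 -2.19 ± 0.89. Without TPA 1 the DUSP1 interaction was -3.10 (adjusted p = 0.0461), and without TPA 2 it was -1.21 (adjusted p = 1.00). DUSP2 measured -0.39 ± 0.97 for EGF and -0.69 ± 1.02 for TPA, each with a standard error larger than the value.

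**Figure D4:**
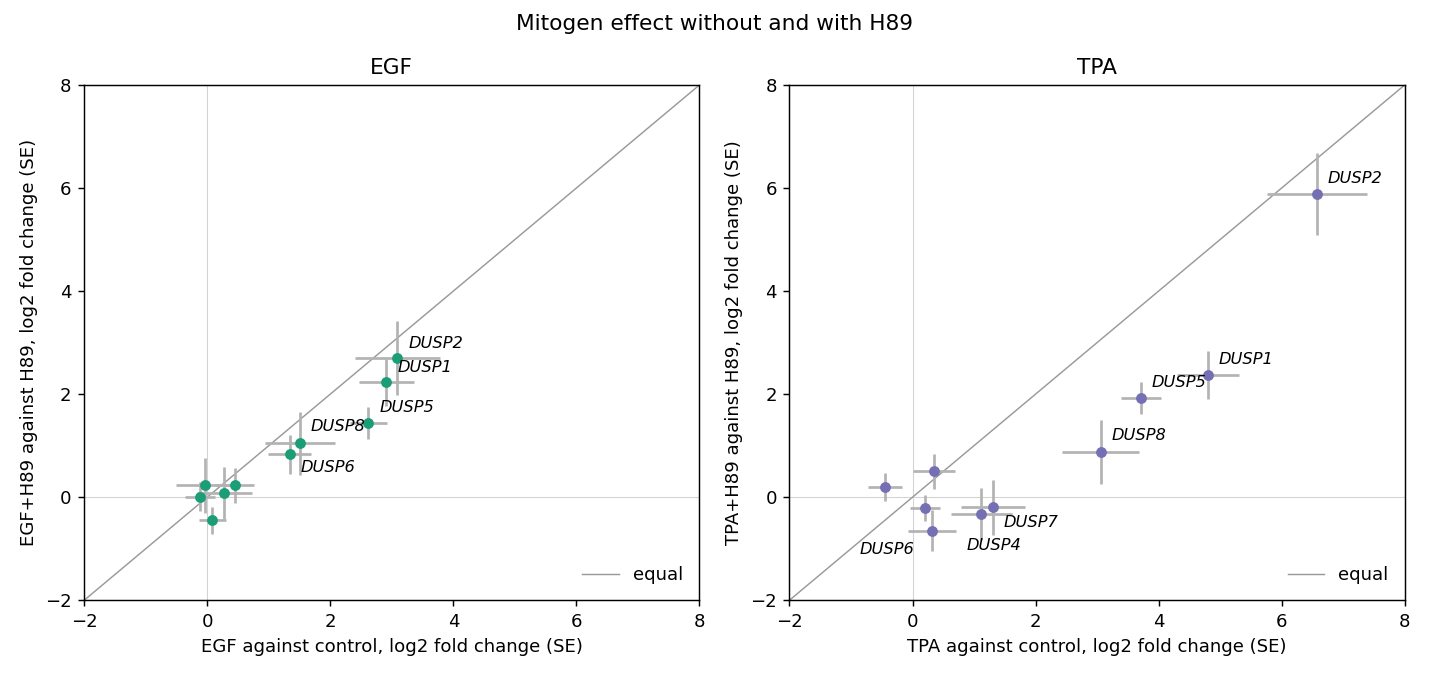
Log2 fold change of each gene after the mitogen without H89 (horizontal, against control) and with H89 (vertical, against H89 alone), with SE, for EGF and TPA; the line marks equal values. After TPA, DUSP1 lies at 4.80 and 2.37, DUSP5 at 3.72 and 1.93 and DUSP8 at 3.06 and 0.87, below the line, and DUSP2 at 6.57 and 5.88.

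Ordered by mean level, the 6 groups fell in much the same sequence in the 2 most alike members, apart from the lowest pair. DUSP1 was lowest in H89 and DUSP5 in control, and these 2 groups overlapped in both genes. From there both ran through EGF+H89 and TPA+H89, which overlapped, to EGF and then TPA. In both genes the ranges of control and EGF+H89, of TPA+H89 and EGF and of EGF and TPA did not overlap. TPA+H89 and EGF nearly touched. The highest TPA+H89 and lowest EGF library held 426 and 436 CPM in DUSP1 and 75.4 and 75.6 CPM in DUSP5. DUSP2 had another order, from H89 and control, which overlapped, through EGF+H89 and EGF, which overlapped, to TPA+H89 and TPA. DUSP6 was lowest in TPA+H89 and highest in EGF, with EGF+H89 overlapping EGF. Every pair of neighbouring groups overlapped in DUSP4, DUSP10 and DUSP16.

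Across the 15 libraries, log2 CPM of DUSP1 and DUSP5 ran closest together among the members (Pearson r = 0.976), ahead of DUSP1 with DUSP2 (0.847), DUSP2 with DUSP5 (0.832) and DUSP1 with DUSP8 (0.830). DUSP4 and DUSP7 formed a further pair (0.793). The lowest value was -0.648, for DUSP4 with DUSP10. These values describe libraries that share treatment, batch and depth, and no test was made of them.

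Outside the family the genes most alike were PELI1 (r = 0.953), SLC25A25 (0.951) and MCL1 (0.948) for DUSP1, and ATF3 (0.951), SOWAHC (0.949) and MCL1 (0.948) for DUSP5. For DUSP2 they were NR4A1 (0.936), an orphan nuclear receptor, ITPRIP (0.935) and DNAJB1 (0.934), a heat-shock cochaperone. For DUSP6 they were BATF2 (0.924), DLL4 (0.867) and LOC284023 (0.859). DUSP7 ran with GATA2 (0.980), ZBTB7A (0.966) and DMWD (0.966), and DUSP8 with ZSWIM4 (0.956), MIDN (0.953) and SH3RF3-AS1 (0.927). DUSP4 ran with PARD6G (0.948), MSANTD2 (0.941) and TPBG (0.938). The remaining members had lower best values, TBP for DUSP10 (0.842), JAZF1 for DUSP14 (0.859) and ZNF518B for DUSP16 (0.854).

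The rest of the MAP kinase pathway gave 1 called gene. Of 18 other dual-specificity phosphatases 15 were tested, and none was called by edgeR in any of the 10 comparisons, with or without the batch term. The same was true of 13 MAP kinases, 11 RAF, RAS and adaptor genes and 8 other phosphatases of MAP kinases. Of 7 MAP kinase kinases 1 was called, MAP2K3, which activates p38. It measured 11.3, 8.94 and 11.5 CPM in control and 36.6 and 44.1 CPM in TPA, and rose by 1.93 ± 0.31 on the log2 scale (adjusted p = 0.0201). EGF libraries held 13.8, 22.9 and 21.5 CPM, and TPA+H89 libraries 31.9 and 28.7 CPM. Of the 54 tested genes of the 5 lists, an unadjusted p under 0.05 was found for 8 after TPA against control (14.8%, beside 13.2% of all genes), for 1 after EGF against control (1.85%, beside 1.63%) and for 9 in TPA against EGF (16.7%, beside 13.4%). These shares were near those of all genes. After TPA the median log2 fold change was -0.03 for the other dual-specificity phosphatases and -0.11 for the MAP kinases, beside 1.21 for the 10 members. Members and lists were chosen with earlier results of these data known, so these medians are a description and not a test. The members' median was 0.67 without TPA 2 and 1.78 without TPA 1.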

How the data were processed

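RNA was measured as gene counts in 16 samples of CCD-1070Sk cells. The authors deposited raw counts of reads per gene symbol. Per the labels' protocols, ribosomal RNA was depleted and strand-specific libraries were sequenced on 3 platforms that the labels do not tie to samples. HOMER, hg19 and GRCh37 are named in the submitters' processing notes. The aligner, annotation version and strand setting of the counting were not given in the sources used here, so reads of overlapping antisense genes may not be separable.

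The 15 distinct libraries entered 1 model, in which each group had its own term, in edgeR 4.0.16 and R 4.3.3 (TMM scaling, filterByExpr with a smallest count of 10, quasi-likelihood test). Benjamini-Hochberg adjustment covered all 18575 tested genes, with a threshold of 0.05, in 10 comparisons. Log2 fold changes are given with an SE, worked back from the quasi-likelihood test as the size of the fold change over the square root of F. Levels are TMM-scaled CPM, divided for comparisons between genes by the GENCODE exon length (GRCh38). Control 3 and control 4 held equal counts at 100% of the 19340 genes detected in either and were counted as 1 sample. Batch was assigned by genes at 1 and 2 counts and by an RNR1 and RNR2 share above 10%. In batches 2 and 3 fewer genes held 1 count than 2, so counts there may not be of single fragments. Correlations were taken on log2 CPM (prior count 2), over genes with a mean of at least 1 CPM, and the 3 most alike genes are named for 7 members and the first for 3. Alternatives used DESeq2 1.42.0, limma 3.58.1 with quality weights, DESeq2 size factors, other filters, a batch term, both control copies, only the compared groups, leaving out control 1, EGF 1 and TPA 2 together, and leaving out each library. The scripts were tested on simulated data. The named genes are all 10 members, the most alike genes and, from 5 pathway lists, those called. Members and lists were chosen with earlier results of these data known.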

Additional observations from a re-analysis of the deposited data

How the results depend on the processing

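Across 24 alternatives no member with a called value changed sign, and of 2395 values 2218 kept their direction and side of the threshold, 56 passed it newly, 22 lost it and 99 uncalled values changed sign. The number of members called moved as follows. The share of all genes called under each setting stands in brackets. For EGF against control (1 by edgeR) it was 4 with DESeq2 (0.307%), 3 with the batch term (0.221%) and with limma quality weights (0.614%), 2 with no filter (0.0276%), with 10 counts in 50% of the libraries (0.0457%), with both control copies (0.0598%) and without control 1, EGF 1 and TPA 2 (0.136%), and 0 with only the compared groups (0%). For TPA against control (3) it was 4 with DESeq2 (2.84%), the batch term (1.25%) and both control copies (0.854%), DUSP8 being added each time, and 0 with only the compared groups (0%), where DUSP1, DUSP2 and DUSP5 had adjusted p of 0.157, 0.102 and 0.0938. For EGF+H89 against EGF (0) it was 1 with quality weights (0.113%), and for TPA+H89 against TPA (0) 2 with DESeq2 (0.0538%). In the latter DESeq2 gave no adjusted p for DUSP2, DUSP4, DUSP8, DUSP10 and DUSP16. For EGF+H89 against H89 (0) it was 3 with DESeq2 (0.275%), the batch term (0.269%) and quality weights (1.15%), and 2 with only the compared groups (0.313%) and without control 1, EGF 1 and TPA 2 (0.266%). For TPA+H89 against H89 (2) it was 3 with DESeq2 (0.409%), the batch term (0.431%), quality weights (0.371%) and without control 1, EGF 1 and TPA 2 (0.467%), DUSP1 being added each time, and 1 with only the compared groups (0.124%). For TPA against EGF (0) it was 3 with DESeq2 (1.58%) and 1 with the batch term (0.334%) and with quality weights (0.00538%). The cause was not tested.

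Leaving out each library in turn gave 0 to 2 members for EGF against control (0% to 0.0598% of all genes), 3 to 5 for TPA against control (0.0665% to 5.92%), 0 to 2 for TPA+H89 against TPA (0% to 3.59%), 0 to 1 for EGF+H89 against H89 (0% to 0.0478%), 0 to 3 for TPA+H89 against H89 (0% to 0.167%), 0 to 4 for TPA against EGF (0% to 5.81%), 0 to 1 for the interaction of TPA and H89 (0% to 0.629%), and 0 for the others (0%). With 1 library left in a group, that library is assumed to vary like the other groups. No paired analysis was made. The labels give running numbers and name no pairs, and do not say whether libraries with neighbouring numbers were handled together. Runs of neighbouring numbers were not modelled. The batch term stands for technical batches read from the counts. Groups held 2 or 3 libraries, depth was unequal and TPA 1 and TPA 2 lay apart, and the part of these in the number of calls was not tested. DUSP2 and DUSP8 rest on few counts in the unstimulated libraries, and DUSP8 also in TPA+H89 1, with 16 counts.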
